A study of Caenorhabditis elegans with 15 samples.

Results

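A pair of amino acid substitutions in KIN17, a zinc finger and winged-helix protein of the spliceosome that the worm gene dxbp-1 encodes, was compared: methionine to isoleucine, KIN17(M107I), against lysine to asparagine, KIN17(K23N). The comparison used 3 libraries of strain SZ355, KIN17(M107I), and 3 libraries of strain SZ345, KIN17(K23N), of the 15 libraries of the series, and took every splicing event that had a value in all 6 libraries. These were 16076 of 20578 alternative 5′ splice site events, 12912 of 17074 alternative 3′ splice site events and 2324 of 2560 annotated events, the last being 6 classes from skipped exons and retained introns to alternative first and last exons. The study looked for suppressors of an unc-73 allele that change 5′ splice site choice and then sequenced mRNA of mixed-stage Caenorhabditis elegans in 5 strains, each in 3 biological replicates. All strains carry smg-4(az152), which blocks nonsense-mediated decay, so that transcripts with early stop codons are kept. SZ355 has the genotype unc-73(az63) dxbp-1(az52) I with smg-4(az152) V, and SZ345 has unc-73(e936az30) dxbp-1(az121) I with smg-4(az152) V. The smg-4 control strain SZ340, quoted beside the comparison, has smg-4(az152) without a KIN17 substitution. The strains PRCC(I371F) and PRCC(null), quoted at some events, carry a substitution or a deletion in prcc-1 with smg-4(az152). PRCC is another protein found in the study's screen. No unc-73 mutation is given for the control or the PRCC strains, so they differ from both KIN17 strains in unc-73 too. Each KIN17 substitution is thus seen in 1 strain and beside a different unc-73 allele. The strains lie in different blocks of library numbers (24 to 26 for KIN17(M107I), 4 to 6 for KIN17(K23N)), and the smg-4 control is in the block of KIN17(K23N). The substitution, the strain background and the library block therefore cannot be told apart.

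KIN17 is found in the spliceosome during activation, after U1 has left and the 5′ splice site has passed to the U6 snRNA. The lysine lies at the zinc finger and the methionine in the winged-helix domain. In worms, pairs of 3′ splice sites that lie a few nucleotides apart are common, and many of them are used differently by germline and somatic cells, the germline taking more of the upstream, poorer site.

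The measure throughout was PSI, the percent spliced in, that is the share of a pair of isoforms that is the included form. For a 3′ event PSI is the use of the upstream of 2 sites, and for a 5′ event it is the use of the downstream of 2 sites. Differences are given as PSI in KIN17(M107I) minus PSI in KIN17(K23N), in percentage points. The reads behind each value are not in the files, so the precision of a single PSI is unknown, and many values (0, 33.3, 50, 66.7 or 100%) are those that a few reads can give. Between 42.4 and 46.5% of the 3′ values and between 53.3 and 57.2% of the 5′ values of a library were exactly 0 or 100%.

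The sites that carry the main difference are short stretches of intron end, shown here for events on which the results below turn. Each runs 5′ to 3′ through the upstream site to the end of the longest intron, with the AG of both sites in capitals, and positions are those of build WS220/ce10. In the first 7 events all 3 KIN17(M107I) libraries used the upstream site less than any KIN17(K23N) library, and the last 2 are listed events with almost equal use, shown for contrast.
lst-6, chrII:7018767-7018780, minus strand: cgaaaaAGctttAG
gly-3, chrIII:7915077-7915090, minus strand: taaataAGttccAG
spat-2, chrIII:11057171-11057184, plus strand: tccaacAGtttcAG
zfp-3, chrX:1442622-1442638, minus strand: ccctcaAGtattttcAG
mel-11, chrII:9363143-9363159, plus strand: cctgctAGcgttttaAG
atx-2, chrIII:10467199-10467214, plus strand: ttatgaAGctttgaAG
panl-3, chrIII:9820065-9820078, plus strand: ccaaaaAGttccAG
wip-1, chrIII:5019795-5019808, plus strand: tctgtcAGtttcAG
saps-1, chrII:11298185-11298198, plus strand: gtataaAGtttcAG
The events of spat-2, wip-1 and saps-1 share the downstream letters tttcAG, yet differ in how far the strains lay apart. Among the 35 listed 3′ events with sites 6 nt apart whose sequence was read, 13 ended in tttcAG and 8 in ttccAG.

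Use of the upstream 3′ site was lower in KIN17(M107I) than in KIN17(K23N) across many genes, mostly by a few points. In 810 of 12912 events (6.27%) all 3 KIN17(M107I) libraries lay below all 3 KIN17(K23N) libraries, and in 324 (2.51%) they lay above. By the sign of the mean difference 6784 events were lower and 5202 higher. Of the 5′ events, 474 of 16076 (2.95%) were lower without overlap and 466 (2.90%) higher, so no such imbalance was seen there. The annotated events had 196 of 2324 (8.43%) lower and 162 (6.97%) higher without overlap.

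The lower 3′ events were gathered at certain distances between the 2 sites. With sites 6 nt apart, 189 of 1123 events (16.8%) were lower in KIN17(M107I) without overlap and 24 (2.14%) higher, against 6.27% and 2.51% over all 3′ events. At 9 nt the counts were 125 (13.6%) lower and 13 (1.41%) higher of 920 events. At 7 nt they were 90 lower and 20 higher of 1004 events, at 8 nt 68 and 24 of 793, and at 12 nt 38 and 4 of 429. At 3 nt, which also keeps the reading frame, 26 events were lower and 23 higher of 804, and at 1 nt 26 were lower and 38 higher of 1031. The median difference over all events was -0.82 points at 6 nt and -0.42 points at 9 nt, beside -0.03 points over all 3′ events. A further count took only events whose mean PSI over the 6 libraries lay between 10 and 90%, a choice made after the data were seen. The median difference there was -5.21 points at 6 nt (568 events, 156 or 27.5% lower and 10 higher without overlap). At 9 nt it was -4.67 points (386 events, 101 or 26.2% lower and 6 higher). Other distances shifted the same way in this range, with 21.6% lower and 1.72% higher at 12 nt. The shares were 20% and 3.87% at 8 nt, and 18.8% and 2.45% at 7 nt. Events of this range made up 568 of 1123 at 6 nt but 66 of 1031 at 1 nt. The shares over all events thus depend in part on how many such events a distance holds.

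**Figure D1:**
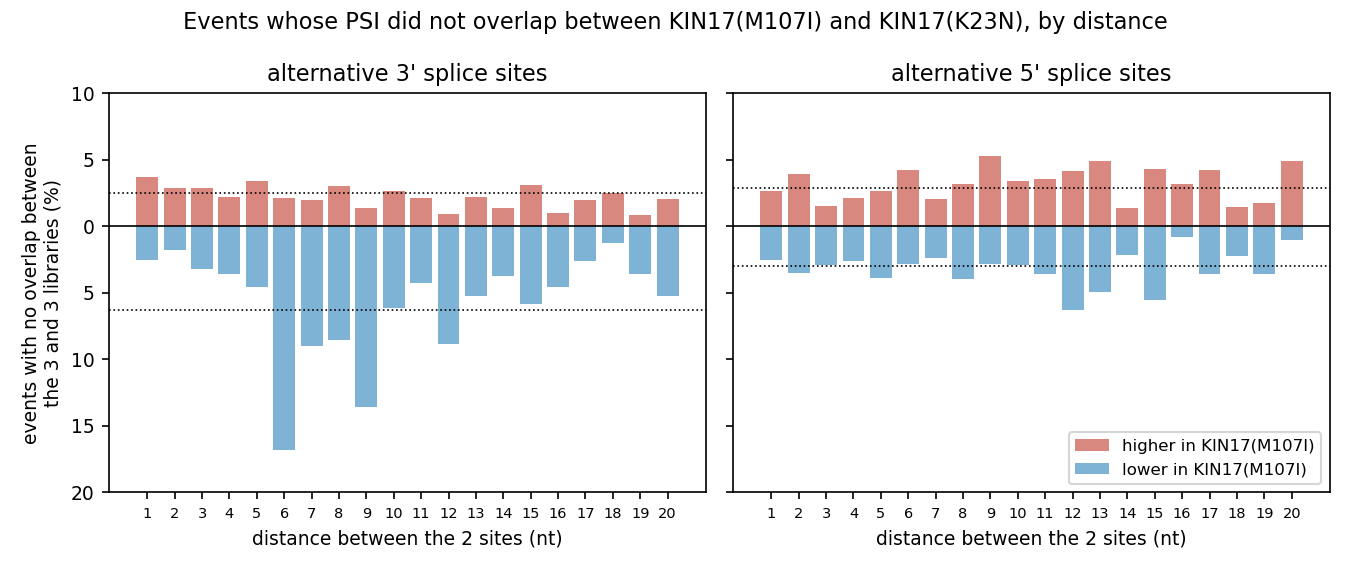
Share of events, in percent, whose 3 KIN17(M107I) libraries all lay above (bars up) or below (bars down) the 3 KIN17(K23N) libraries, by the distance in nt between the 2 alternative sites, for 3′ sites (left) and 5′ sites (right). Dotted lines give the shares over all events of the class; the bars down at 6 nt (16.8%) and 9 nt (13.6%) stand out among 3′ events, and no 5′ distance shows the like.

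The difference was largest where the control strain itself used both sites. The events were grouped by their mean PSI in the 3 smg-4 control libraries, which take no part in the difference. Of the pairs 6 or 9 nt apart that the control used at 30 to 60%, 122 of 353 (34.6%) were lower in KIN17(M107I) without overlap and 3 higher, with a median difference of -6.44 points. At a control level of 10 to 30%, 74 of 276 were lower and 3 higher (median -5.01 points), and at 60 to 90%, 50 of 236 were lower and 5 higher (median -3.70 points). At 98 to 100%, 6 of 294 were lower and 5 higher. Pairs at other distances showed a smaller shift, with 61 of 410 lower and 13 higher at a control level of 30 to 60%.

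Each library could be placed by the median over the 353 events used at 30 to 60% in the control. This median was 51.9, 53.5 and 52.3% in the KIN17(M107I) libraries, 60.8, 60.3 and 55.6% in the KIN17(K23N) libraries and 45.0, 39.6 and 43.6% in the control libraries. The 3 strains did not overlap, KIN17(M107I) lay between the control and KIN17(K23N), and replicate 6 was the KIN17(K23N) library nearest to KIN17(M107I). The events were chosen by their level in these control libraries, so the control medians are set in part by that choice. The worms were of mixed stages, so how much of each tissue or stage a library held and how each cell spliced cannot be told apart in these values. The files hold splicing events and no expression, and the part of tissue or stage in the difference was not tested here.

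**Figure D2:**
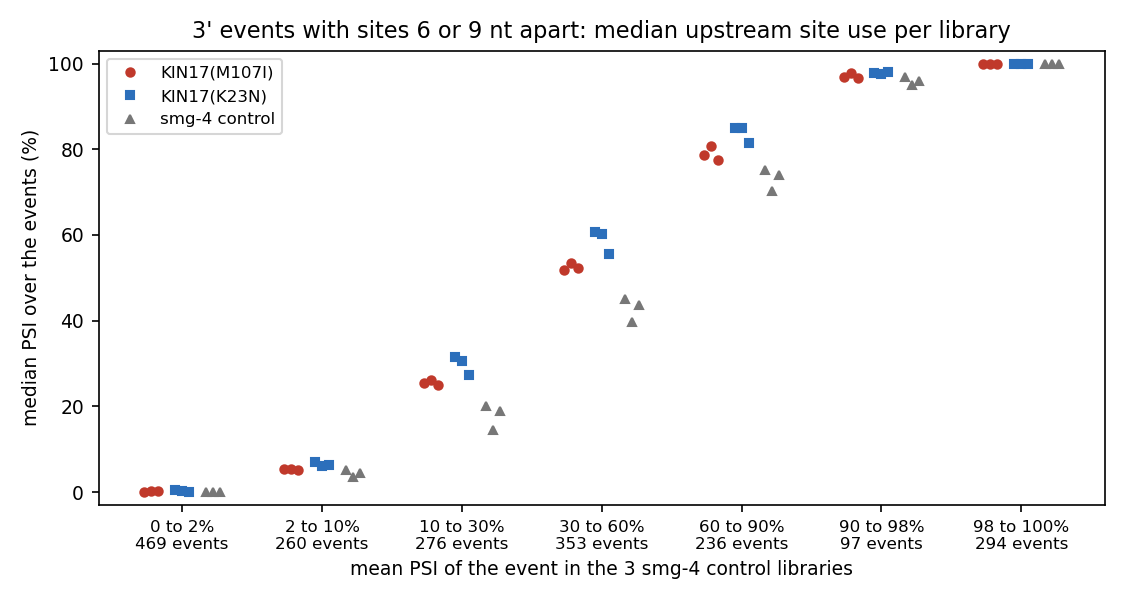
Median PSI (%) over 3′ events with sites 6 or 9 nt apart, 1 point per library, for groups of events set by their mean PSI in the smg-4 control libraries. The control points are set in part by this grouping. At control levels from 10 to 90% the KIN17(M107I) points lie below the KIN17(K23N) points and above the control points, and at 98 to 100% all 9 medians are 100%.

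The lower events were found in short and long introns. Among pairs 6 or 9 nt apart, 159 of 959 events in introns under 60 nt were lower without overlap and 19 higher, and in introns of 500 nt or more 64 of 386 were lower and 3 higher. They were found on every chromosome, with the lower 3′ events between 4.21% of those on X and 7.53% of those on III, and the higher ones between 2.04% on X and 2.86% on IV.

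Single 3′ events are given next, starting with those that passed both the rule of the study and the limma test. The rule asks that all 9 pairs of libraries differ by more than 15 points in 1 direction and by more than 20 points on average. It was met by 21 3′ events that were lower in KIN17(M107I) (0.163%) and 16 that were higher (0.124%). The limma test, at an adjusted p under 0.05 and a mean difference over 20 points, called 7 lower (0.0542%) and 6 higher (0.0465%), and all 13 also met the rule. Among these, 1 lower and 1 higher event on chromosome II share a site (first exon base 11542446), so their opposite signs are not separate differences. At an unadjusted p under 0.05 there were 612 lower and 219 higher 3′ events. With 3 libraries a strain an exact permutation test of a single event cannot give a two-sided p below 0.1, so none is quoted below. The calls depend on the fit, since a single limma fit of all 15 libraries called no 3′ event (586 lower and 266 higher at an unadjusted p under 0.05, of 12325 events), and its adjusted p-values are given for the events described in detail.

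attf-3, which encodes an AT-hook transcription factor, has 3′ sites 9 nt apart on chromosome III (first exon bases 85173 and 85164). Its upstream site was used at 54.8, 53.5 and 59.3% in KIN17(M107I), 78.4, 78.6 and 78.9% in KIN17(K23N) and 44.4, 42.9 and 38.5% in the control. The 3 strains stood apart, with KIN17(M107I) in the middle. The difference of -22.8 points, or -1.50 ± 0.10 (SE) as a log2 ratio of both sites' use, had a limma adjusted p of 0.0196, or 0.390 in the fit of all 15 libraries.

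T16G1.9, on chromosome V with sites 12 nt apart, had 17.6, 20.0 and 17.4% in KIN17(M107I) and 45.3, 43.8 and 38.2% in KIN17(K23N). The control had 15.2, 17.4 and 17.8%, so KIN17(M107I) lay beside the control and only KIN17(K23N) was far from it. The difference was -24.1 points (adjusted p = 0.0334, and 0.0682 in the fit of all 15 libraries). A dip-2 event, with sites 6 nt apart on chromosome I, showed the same order of values. Its upstream site was used at 20.0, 20.0 and 19.3% in KIN17(M107I), 41.5, 38.2 and 45.0% in KIN17(K23N) and 21.4, 14.8 and 8% in the control. The difference was -21.8 points (adjusted p = 0.0257, and 0.339 in the fit of all 15 libraries). Another dip-2 event with sites 6 nt apart had means of 22.9% in KIN17(M107I) and 35.9% in KIN17(K23N). Its difference of -12.9 points was not called (limma adjusted p = 0.686). dip-2 encodes a protein of the disco-interacting family.

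The other 10 called 3′ events rested on coarse values, with 1 strain at 0 or 100% in all 3 libraries. In ogdh-2, which encodes a subunit of the 2-oxoglutarate dehydrogenase complex, the upstream of 2 sites 9 nt apart was used at 57.1, 66.7 and 50% in KIN17(M107I), 100, 100 and 100% in KIN17(K23N) and 75, 75 and 71.4% in the control. In egl-26, with sites 37 nt apart, it was used at 100, 100 and 100% in KIN17(M107I) and 75, 75 and 55.6% in KIN17(K23N), while the control ranged between 50 and 100%. Adjusted p-values of these 10 events lay between 0.000399 and 0.0320 in the limma fit of the 6 libraries, and none of them was called in the fit of all 15.

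Outside the calls there were events with steadier values, named here after their values were seen. They had every library between 5 and 95%, no overlap, a mean difference beyond -15 points and an unadjusted limma p under 0.01, which 25 events met, 3 of them described above, while 1 event met the same limits in the other direction. Of the 21 that were not called and not in a gene the study had singled out, 12 had sites 6 nt apart and 4 had sites 9 nt apart.

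H05C05.1 on chromosome III had 57.4, 59.0 and 59.1% in KIN17(M107I), 72.8, 75.6 and 75.1% in KIN17(K23N) and 41.2, 40.5 and 37.2% in the control, at sites 6 nt apart. The strains were well separated and the libraries of a strain lay within 3 points of each other in both KIN17 strains (adjusted p = 0.0238, and 0.390 in the fit of all 15 libraries). spat-2, a suppressor of polarity defects of par-2 embryos, has sites 6 nt apart and gave 53.9, 57.1 and 56.1% in KIN17(M107I), 72.3, 70.8 and 70.7% in KIN17(K23N) and 34.6, 31.9 and 44.8% in the control (adjusted p = 0.0241, and 0.484 in the fit of all 15 libraries). crh-2, which encodes a CREB-family transcription factor, gave 69.8, 69.4 and 68.3% in KIN17(M107I), 86.6, 84.2 and 84.3% in KIN17(K23N) and 67.3, 43.3 and 54.3% in the control, at sites 10 nt apart (adjusted p = 0.0238, and 0.390 in the fit of all 15 libraries). None of these 3 events was called, as each differed by less than 20 points. In crh-2 the highest control library came close to KIN17(M107I), and in H05C05.1 and spat-2 no control library did.

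The other members of this set named here had adjusted p-values above 0.05 and were not called either. bet-1, a double bromodomain protein, had 56.5, 57.3 and 52.8% in KIN17(M107I), 78.3, 75.3 and 69.8% in KIN17(K23N) and 48.1, 37.1 and 45.6% in the control (adjusted p = 0.166). ubr-4, a ubiquitin ligase homolog, had 42.5, 47.1 and 42.9% in KIN17(M107I), 70.3, 70.2 and 61.1% in KIN17(K23N) and 62.5, 35 and 38.1% in the control (adjusted p = 0.148). In ubr-4 the control libraries were spread widely, from below KIN17(M107I) into the range of KIN17(K23N). gly-3, a polypeptide N-acetylgalactosaminyltransferase, had 40, 45.5 and 37.99% in KIN17(M107I), 59.2, 60.1 and 56.2% in KIN17(K23N) and 38.3, 21.95 and 35.7% in the control (adjusted p = 0.137). lst-6, a target of lateral signaling in vulval cells, had 49.2, 52.8 and 43.4% in KIN17(M107I), 60.7, 70.2 and 70.5% in KIN17(K23N) and 21.4, 26.2 and 34.4% in the control (adjusted p = 0.332). hmp-1, the worm alpha-catenin of epidermal junctions, had 62.2, 63.4 and 58.7% in KIN17(M107I), 78.5, 80.7 and 71.1% in KIN17(K23N) and 53.5, 33.3 and 56.2% in the control (adjusted p = 0.330). All of these events had sites 6 nt apart except that of hmp-1, with 9 nt. The zfp-3 event, also 9 nt, had 23.1, 22.5 and 21.8% in KIN17(M107I), 51.4, 33.3 and 42.3% in KIN17(K23N) and 10.4, 4.88 and 12.8% in the control (adjusted p = 0.339).

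**Figure D3:**
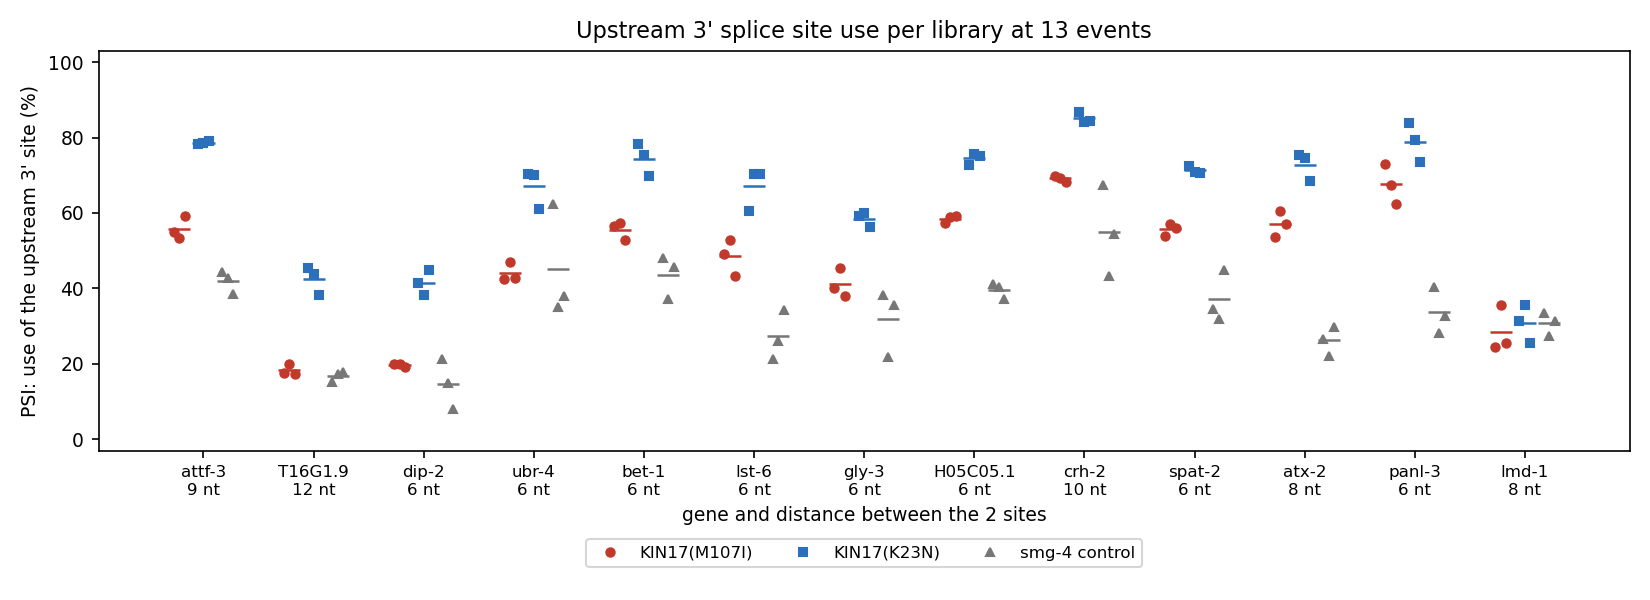
Use of the upstream 3′ site (PSI, %) per library at 13 events, 1 point per library and a bar at the mean of 3 libraries for KIN17(M107I), KIN17(K23N) and the smg-4 control. At the 12 events other than lmd-1 every KIN17(M107I) library lies below every KIN17(K23N) library, and at T16G1.9 and dip-2 the KIN17(M107I) libraries lie close to the control.

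Next came events in atx-2, panl-3 and lmd-1, whose 3′ choice the study followed by RT-PCR in synchronized larvae and young adults. Within a stage it saw no difference between the control and the KIN17 strains at these events. It proposes that 3′ changes in mixed-stage worms may come from a changed share of germline. For this it also draws on germline terms among expression changes, on overlap with known germline-regulated 3′ events and on progeny counts. The values below are from mixed-stage worms. The first, atx-2, encodes the worm ataxin-2, a regulator of translation in the germline. Its upstream site was used at 53.5, 60.4 and 57.2% in KIN17(M107I), 75.3, 74.5 and 68.5% in KIN17(K23N) and 26.6, 22.2 and 29.9% in the control, at sites 8 nt apart. The 3 strains did not overlap, but the difference of -15.7 points was not called (adjusted p = 0.230). panl-3, a subunit of the PAN deadenylase that shortens poly(A) tails, had 72.9, 67.5 and 62.4% in KIN17(M107I), 83.8, 79.4 and 73.6% in KIN17(K23N) and 40.5, 28.2 and 32.7% in the control, at sites 6 nt apart. Its libraries met within 1 point, at 72.9% in KIN17(M107I) and 73.6% in KIN17(K23N), and the difference of -11.3 points was not called (adjusted p = 0.686). A further panl-3 pair, 9 nt apart, had means of 12.6 ± 1.58% in KIN17(M107I) and 12.2 ± 1.98% in KIN17(K23N) (SD, n = 3 each). lmd-1, which encodes a LysM-domain protein, had 24.5, 35.6 and 25.4% in KIN17(M107I), 31.3, 35.7 and 25.7% in KIN17(K23N) and 33.6, 27.5 and 31.4% in the control, at sites 8 nt apart. All 3 strains overlapped in lmd-1.

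The lists of 3′ events that the study published for its strains gave the same direction, as far as their entries could be matched to a single event of the files. Left out as unmatched were 5 3′ entries for PRCC(null), 13 for KIN17(K23N) and 1 for KIN17(M107I). Of the 30 matched 3′ events of the PRCC(null) list, chosen on PRCC and control libraries and on no KIN17 library, 29 had a lower mean PSI in KIN17(M107I) than in KIN17(K23N) and 1 a higher one, with 10 lower (33.3%) and 0 higher without overlap, beside 6.27% and 2.51% over all 3′ events. The median difference was -8.24 points, beside -0.03 points over all 3′ events. A nearer background is the pairs 6 or 9 nt apart that the control used at 30 to 60%. Of those, 122 of 353 (34.6%) were lower and 3 higher without overlap, with a median of -6.44 points, so the list's 33.3% is no excess over them. Most events of the list are also on the KIN17(K23N) list described below. No event of the PRCC(null) list was called by limma, which gave 10 an unadjusted p under 0.05, all lower. The higher member was F52G3.1, with sites 9 nt apart, at 33.1, 31.6 and 33.3% in KIN17(M107I) and 27.4, 37.3 and 26.2% in KIN17(K23N), which overlap. The per-library medians over the list were 57.9, 60.1 and 53.6% in KIN17(M107I), 70.4, 66.8 and 60.7% in KIN17(K23N) and 35.2, 24.2 and 33.03% in the control. Replicate 6 of KIN17(K23N) again came nearest to KIN17(M107I), within 1 point of its highest library.

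The lists made on the KIN17 libraries themselves are no independent evidence of a direction. Of the 94 matched 3′ events of the KIN17(K23N) list, 93 were lower in KIN17(M107I), 62 of them (66.0%) without overlap, with a median difference of -9.95 points. Of the 22 matched for KIN17(M107I), 21 were lower, 6 of them (27.3%) without overlap, with a median of -5.48 points. The list chosen for high values in KIN17(M107I) thus also had higher values in KIN17(K23N), at library medians of 60.99, 60.62 and 59.3% in KIN17(M107I) and 71.1, 69.6 and 62.5% in KIN17(K23N).

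Near-equal use was also found among listed 3′ events, named here after their values were seen. wip-1, a partner of the actin regulator WASP, had 53.6, 51.8 and 46.1% in KIN17(M107I), 53.8, 51.3 and 47.5% in KIN17(K23N) and 30, 19.1 and 28.2% in the control. saps-1, a regulatory subunit of a PP6-type phosphatase, had 63.97, 59.1 and 62.3% in KIN17(M107I), 58.9, 67.2 and 60% in KIN17(K23N) and 37.7, 30.4 and 40.4% in the control. Both KIN17 strains stood above the control at these events and overlapped each other. mel-11, the regulatory subunit of myosin phosphatase, was near the other end of the KIN17(K23N) list, with 51.4, 45.2 and 56.5% in KIN17(M107I), 75.6, 71.3 and 63.6% in KIN17(K23N) and 30.2, 26.7 and 35.8% in the control, and was not called either (adjusted p = 0.405).

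**Figure D4:**
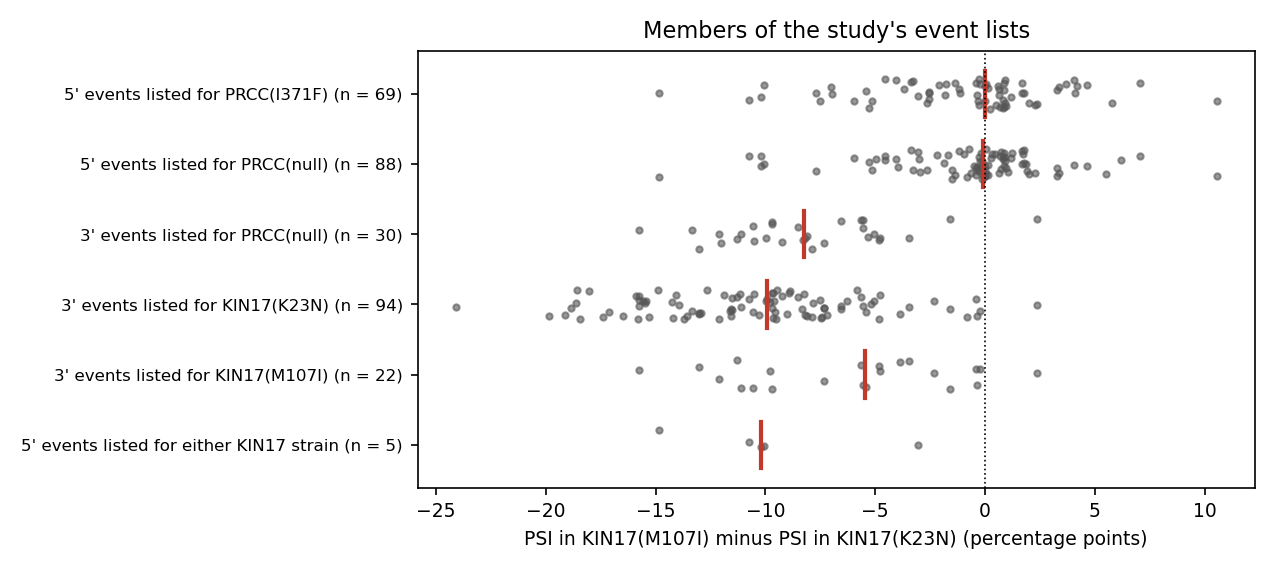
Difference in PSI, KIN17(M107I) minus KIN17(K23N) in percentage points, of each matched member of 6 event lists of the study, with 1 point per event and a red bar at the list's median. The 3′ lists lie left of 0 with medians of -8.24, -9.95 and -5.48 points, and the PRCC lists of 5′ events are centred near 0.

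At 5′ splice sites the strains differed at few events and in both directions. The rule of all 9 pairs was met by 30 events that were higher in KIN17(M107I) (0.187%) and 34 that were lower (0.211%), and limma called 7 higher (0.0435%) and 5 lower (0.0311%), with 213 higher and 224 lower at an unadjusted p under 0.05. No distance between sites stood out. Sites 1 nt apart had 96 events higher and 91 lower without overlap of 3587, and sites 2 nt apart had 44 higher and 39 lower of 1107.

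Some 5′ events that the study listed for a KIN17 strain, or tested, are shown by sequence. Each starts with the first intron base after the upstream site, and the capitals are the first 2 intron bases after the downstream site, so the bases before the capitals are added to the exon when the downstream site is used.
F59A7.5, chrV:2023434-2023450, plus strand: gtGTtcgaattgaaatt
spas-1, chrV:9176580-9176594, plus strand: gtGTttagtttggtt
M60.6, chrX:8250605-8250617, minus strand: gtGTgaccgtatt
T21H3.9, chrV:17655782-17655794, minus strand: gTTagttatttag
The first 3 are pairs of GT sites 2 nt apart, and the last is a pair 1 nt apart whose downstream intron starts with TT. The first 2 had lower means in KIN17(M107I) and the last 2 had higher ones. The study's text describes its spas-1 target as a GT site with a TT site 1 nt downstream, unlike the pair shown here.

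F59A7.5 had 35.8, 23.8 and 24.6% use of the downstream site in KIN17(M107I), 52.9, 39.1 and 36.7% in KIN17(K23N) and 5.62, 1.77 and 5.32% in the control. Its strains did not overlap. spas-1, the worm spastin, a microtubule-severing enzyme, had 33.3, 20.99 and 16.5% in KIN17(M107I), 34.5, 38.9 and 27.5% in KIN17(K23N) and 0, 0 and 0% in the control. A single KIN17(M107I) library lay within the range of KIN17(K23N). cec-10, a chromodomain protein, had 37.0, 37.4 and 40.6% in KIN17(M107I), 40, 42.3 and 41.7% in KIN17(K23N) and 2.82, 0 and 2.63% in the control, and the KIN17 strains overlapped. wac-1.2 had 10.4, 9.76 and 7.93% in KIN17(M107I), 20.05, 20.5 and 19.8% in KIN17(K23N) and 1.29, 0 and 0.687% in the control, with no overlap. usp-5, a deubiquitinating enzyme, had 18.6, 25.2 and 19.5% in KIN17(M107I), 26.2, 33.8 and 33.8% in KIN17(K23N) and 4.90, 1.19 and 1.30% in the control. All 5 of these events, the whole 5′ list of the KIN17 strains, were lower in KIN17(M107I), with a median difference of -10.2 points, and none was called by limma (adjusted p = 0.902 to 1, with 1 at an unadjusted p under 0.05). This list, too, was chosen on the KIN17 libraries.

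The 2 other events had the opposite order. M60.6 had 24.3, 22.4 and 16.7% in KIN17(M107I), 11.9, 8.89 and 10.96% in KIN17(K23N) and 0, 1.61 and 2.97% in the control, without overlap between the strains. T21H3.9 had 22.97, 24.04 and 17.5% in KIN17(M107I), 17.9, 10.3 and 15.1% in KIN17(K23N) and 1.35, 1.66 and 2.22% in the control, and there the lowest KIN17(M107I) library lay below the highest KIN17(K23N) library. The differences of 10.5 and 7.05 points were not called (adjusted p = 0.902 each, unadjusted p = 0.0402 and 0.181).

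A check of the labels is unc-73, the gene of the reporter, which encodes a guanine nucleotide exchange factor of the Trio family. In an intron of 203 nt on chromosome I, the use of the downstream of 2 sites 23 nt apart was 73.3, 100 and 84.0% in KIN17(M107I) and 0, 0 and 0% in KIN17(K23N) and in the control. It was also 0% in all 6 PRCC libraries. The strains carry different unc-73 alleles, and SZ345 has the one in which the downstream site was removed by a base change, so the difference cannot be assigned to KIN17. limma gave the difference of 85.8 points an adjusted p of 0.262 in the fit of 6 libraries and 0.00589 in the fit of all 15.

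**Figure D5:**
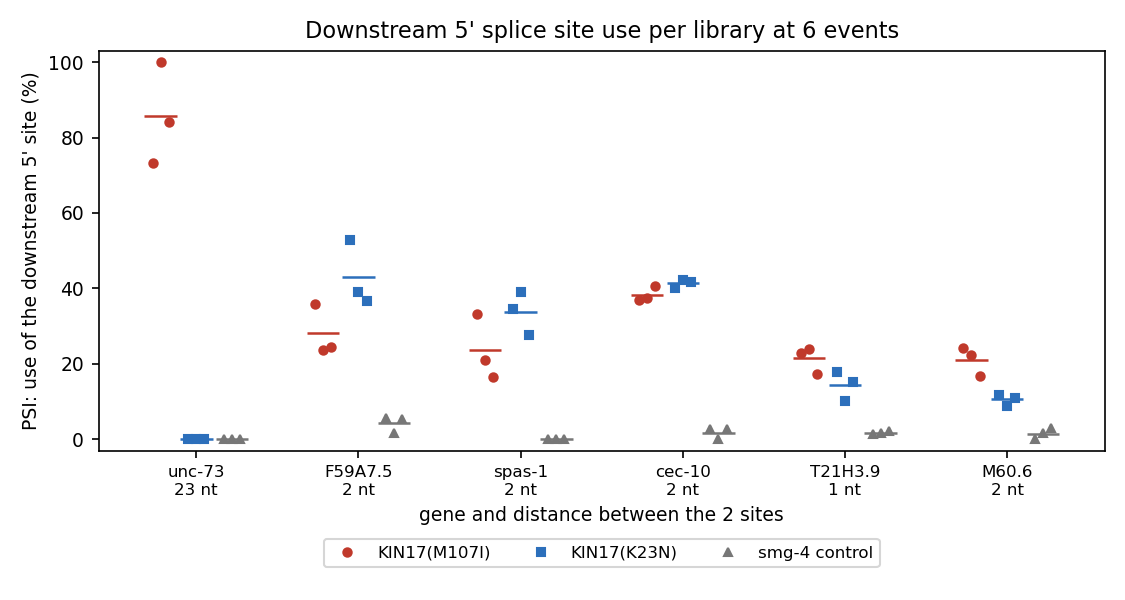
Use of the downstream 5′ site (PSI, %) per library at 6 events, 1 point per library and a bar at the mean, for KIN17(M107I), KIN17(K23N) and the smg-4 control. Only unc-73, where the strains carry different alleles, separates the KIN17 strains by more than 20 points. Both KIN17 strains lie above the control at the other 5 events, with KIN17(M107I) lower on average at 3 of them and higher at 2.

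The 5′ events that the study listed for mutants of PRCC, the other protein of its screen, lay on both sides of 0 between the KIN17 strains. Of 69 5′ events listed for PRCC(I371F), all of them matched, 34 were higher in KIN17(M107I) and 35 lower, with a median of -0.01 points. Of 88 matched among 90 entries for PRCC(null), 40 were higher and 47 lower, with a median of -0.08 points, beside 0 points over all 5′ events. Without overlap 6 were higher (6.82%) and 12 lower (13.6%) on the PRCC(null) list, against 2.90% and 2.95% over all 5′ events. On the PRCC(I371F) list 5 were higher (7.25%) and 9 lower (13.04%). Both shares were thus above those of all 5′ events on both lists, but the lists share many events. The control medians over the lists were at most 0.806%. Of all pairs 2 nt apart that the control used at 0 to 2%, 10 of 325 (3.08%) were lower without overlap and 18 (5.54%) higher. At a control level of 2 to 10%, 5 of 39 (12.8%) were lower and 3 (7.69%) higher. The lower events of the lists include usp-5, wac-1.2 and F59A7.5, which are also on the 5′ list of the KIN17 strains. limma called none of them, with 2 higher and 1 lower at an unadjusted p under 0.05 on the PRCC(null) list, and 1 higher and 1 lower on the PRCC(I371F) list. The largest differences in each direction belonged to F59A7.5 and M60.6, given above.

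The 12 5′ events that limma called all met the rule as well, and in each of them 1 strain was at 0 or 100% in every library. The widest was a pair 3 nt apart in skpt-1, which encodes an F-box protein. Its downstream site was used at 100, 100 and 100% in KIN17(M107I), 0, 0 and 0% in KIN17(K23N) and 0 and 0% in the 2 control libraries with a value (adjusted p = 0.00525). In the 3 PRCC(null) libraries it was used at 100, 85.7 and 100%. A pair of overlapping events in a 9118-nt intron on chromosome IV, with no gene name here, was called in both directions. The events share a site (last exon base 653475), upstream in the event 6 nt apart and downstream in the event 5 nt apart. Their opposite signs are thus 1 change, the absence of this site in KIN17(M107I). The 2 called events of T25B2.2, 1 higher and 1 lower, also share a site (6173401), so these calls are not separate differences. The event 6 nt apart was at 100, 100 and 100% in KIN17(M107I), 7.69, 10 and 16.7% in KIN17(K23N) and 23.1, 25 and 33.3% in the control, with 100, 100 and 100% in PRCC(null) (adjusted p = 0.0290, and 0.134 in the fit of all 15 libraries). The event 5 nt apart was at 0, 0 and 0% in KIN17(M107I), 66.7, 64.3 and 55.6% in KIN17(K23N) and 66.7, 75 and 50% in the control, with 0, 0 and 0% in PRCC(null) (adjusted p = 0.0290, and 0.356 in the fit of all 15 libraries). In both, PRCC(null) had the values of KIN17(M107I), and the control was nearer to KIN17(K23N). PRCC(null) shares its block of library numbers with KIN17(M107I), and the control and PRCC(I371F) share theirs with KIN17(K23N). PRCC(I371F) was mixed, at 12.5, 100 and 33.3% for the event 6 nt apart and 100 and 0% in its 2 libraries with a value for skpt-1. The part of the block in these differences was not tested. An event with sites 1 nt apart on chromosome III, without a gene name, was lower in KIN17(M107I). It had 8.70, 14.3 and 21.6% in KIN17(M107I), 100, 100 and 100% in KIN17(K23N) and 100% in each of the 6 PRCC libraries (adjusted p = 0.0349), with no value in the control. skpt-1 and this event lack a value in some library and were not in the fit of all 15.

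Of the annotated events, 4 were higher in KIN17(M107I) by the rule (0.172%) and 1 was lower (0.0430%). limma called 2 higher (0.0861%) and 0 lower, while 69 higher and 85 lower events had an unadjusted p under 0.05. The retained intron in mec-1, an extracellular matrix protein of touch neurons, had 60, 33.3 and 50% in KIN17(M107I), 0, 0 and 0% in KIN17(K23N) and 0 and 33.3% in the 2 control libraries with a value (adjusted p = 0.0387, and not in the fit of all 15 libraries). The other call was an alternative first exon on chromosome V with no gene name, at 33.3, 42.9 and 25% in KIN17(M107I) and 0, 0 and 0% in KIN17(K23N), while its control libraries ran between 0 and 100%. Both rested on coarse values. Among skipped exons, 64 of 565 were lower and 49 higher without overlap, and among retained introns 50 of 801 were lower and 48 higher, which is closer to balance than the 3′ sites were. The skipped exon of spas-1 was included at 40.05, 38.5 and 41.6% in KIN17(M107I), 35.9, 33.9 and 27.03% in KIN17(K23N) and 34.7, 34.96 and 34.8% in the control, a difference of 7.78 points without overlap that was not called (adjusted p = 0.735).

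Genes of 7 lists were looked up among the named events: the spliceosome, SR proteins and other splicing regulators, nonsense-mediated decay, germline and oocyte, muscle, neuron, and ribosomal proteins. Of their 349 3′ events 22 (6.30%) were lower in KIN17(M107I) without overlap and 9 (2.58%) higher, beside 6.27% and 2.51% over all 3′ events. Of their 399 5′ events 20 (5.013%) were lower and 11 (2.76%) higher, beside 2.95% and 2.90% over all 5′ events. Of their 97 annotated events 10 (10.3%) were lower and 7 (7.22%) higher, beside 8.43% and 6.97% over all annotated events. No event of these lists met the rule or was called by limma, which gave 18, 6 and 7 of them an unadjusted p under 0.05. In the genes of nonsense-mediated decay, 20 of 25 3′ events were lower by their mean and 5 higher, with a median difference of -0.69 points beside -0.03 over all 3′ events, and 2 (8%) were lower without overlap. In genes of the germline and oocyte list 29 of 64 3′ events were lower and 30 higher, with 4 (6.25%) lower without overlap. In SR proteins and splicing regulators 22 of 34 were lower and 11 higher, and in spliceosome genes 11 of 25 were lower and 12 higher. Ribosomal protein genes held the most events, with 11 of 153 3′ events lower (7.19%) and 6 higher (3.92%) without overlap, against 6.27% and 2.51% over all 3′ events.

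The 6 libraries were much alike in what they covered. A KIN17(M107I) library had a value for 15131 to 15220 3′ events and a KIN17(K23N) library for 14872 to 15047. Over 3′ events with a mean PSI of 10 to 90%, 2 libraries of 1 strain differed by a median of 6.67 to 8.33 points and libraries of different strains by 7.14 to 10.99 points. No 2 libraries held the same values, the share of identical 3′ values being at most 30.3%. The mean over these events was 48.9, 49.7 and 48.3% in KIN17(M107I) and 52.3, 52.6 and 49.7% in KIN17(K23N), where replicate 6 met the highest KIN17(M107I) library.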

How the data were processed

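Deposited values were PSI scores per library. Per the labels and the methods of the study, the authors mapped paired-end reads with a STAR modified to accept introns that start with UU, and counted isoforms with junctionCounts. Introns had 5 or more reads in total and alternative ends at most 50 nt apart. As deposited, each event has an included and an excluded score out of 1000, rounded and with no read counts, so depth is unknown. PSI was computed as included over the sum of both scores, with a pair of extreme scores taken as 0 or 100%.

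Only events with a value in all 6 libraries entered, and no control library entered the comparison. No overlap means that all 3 libraries of one strain lay above all 3 of the other. The rule of the study asks for 9 pairwise differences over 15 points in 1 direction and a mean over 20 points; the visual inspection that followed there was not repeated. The test was limma 3.58.1 (R 4.3.3) on log2((PSI + 0.01)/(1 - PSI + 0.01)), PSI as a fraction, with empirical Bayes trend and robust options and Benjamini-Hochberg adjustment over all events of a class set, called at an adjusted p under 0.05 and a mean difference over 20 points. Adjusted p-values are from this fit unless another is named. It was tested on simulated data, where the adjusted p without the 20-point threshold made too many calls. Other steps used Python 3.11.15, pandas 2.3.3 and numpy 2.4.6. Gene names came from matching introns to an annotation of another assembly by their structure. Events without such a match took a name from named neighbouring events where only 1 gene was possible. In all, 22326 of 31312 events had a name. Lists and sequences came from the study's supplementary tables, matched by position and distance between sites, with 311 entries matched to 1 event and 21 left out.

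Named were the called events (at most 10 in each direction per class set), all events of 8 genes that the study tested or singled out, and events said to be chosen later. The events compared, the lists and the rules were chosen with earlier results of these data known. The alternatives were other thresholds, pseudocounts, scales, event filters, a fit of all 15 libraries and leaving out each library. The p-values measure the spread between RNA isolations of 1 strain each.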

Additional observations from a re-analysis of the deposited data

Results flagged for a closer look

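One value lay outside the comparison because a KIN17(M107I) library had no score. It is a 3′ event of unc-73 on chromosome I (4021687 to 4022022, minus strand, build WS220/ce10) with sites 1 nt apart. Its mean PSI was 67.6 ± 8.95% in KIN17(K23N) (SD, n = 3), with 59.1, 66.7 and 76.9% in the single libraries. Both KIN17(M107I) libraries with a value, all control libraries and all PRCC libraries were at 100%. SZ345 is the strain with the e936az30 allele of unc-73, so allele and KIN17 substitution cannot be told apart here.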

How the results depend on the processing

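The precision of each PSI is unknown without read counts, strain and library block coincide, and the limma counts depend strongly on the fit. With a smallest pairwise difference over 20 points, the rule was met by 38 5′ events (64 at 15 points) and 20 3′ events (37), and with 10 points by 8 annotated events (5). limma called 12 5′ events, against 24 with a pseudocount of 0.001, 0 on untransformed PSI (171 higher and 184 lower at an unadjusted p under 0.05), 6 among variable events, 1 in the fit of all 15 libraries (unc-73), 20 without trend and robust options and 24 without the threshold on the mean. It called 13 3′ events, against 24 with a pseudocount of 0.001, 6 with 0.05, 3 on untransformed PSI, 5 among variable events, 0 in the fit of all 15 libraries and 80 without the threshold. It called 2 annotated events, against 0 with a pseudocount of 0.05 (55 higher and 64 lower at an unadjusted p under 0.05), 0 on untransformed PSI (47 and 62), 1 in the fit of all 15 libraries and 4 without the threshold. Some counts were restricted to a mean PSI of 10 to 90%, a choice made after the data were seen. Of 2733 such 3′ events 447 were lower without overlap (810 in all) and 81 higher (324). Of 2276 such 5′ events 133 were lower (474) and 117 higher (466). Of such 3′ pairs 6 or 9 nt apart 257 were lower (314) and 16 higher (37). Among variable events the median at 9 nt was -0.54 points. Leaving out 1 library makes the rules looser, as 3 libraries then face 2. The rule was then met by 128 to 146 5′, 72 to 130 3′ and 9 to 21 annotated events, and limma called 12 to 32, 14 to 44 and 0 to 3. Without overlap, 874 to 969 5′ events were lower and 842 to 932 higher, 1197 to 1491 3′ events were lower and 588 to 712 higher, and of pairs 6 or 9 nt apart 389 to 531 were lower and 78 to 87 higher. The highest 3′ counts of lower events came without KIN17(K23N) replicate 6. List medians ran between -12.04 and -8.87 points (3′, KIN17(K23N)), -7.57 and -3.38 (3′, KIN17(M107I)), -11.2 and -5.74 (3′, PRCC(null)), -0.36 and -0.03 (5′, PRCC(I371F)), -0.20 and -0.032 (5′, PRCC(null)) and -11.3 and -8.92 (5′, KIN17 strains), and medians of pairs between -0.98 and -0.69 at 6 nt and -0.55 and -0.29 at 9 nt. Without 1 library the sign turned at 10 of the 90 named events, none of them called or without overlap and the largest of them differing by 2.39 points (lmd-1). No paired analysis was possible because the strains share no replicate numbers.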
